A study of Mus musculus with 24 samples.

Results

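LSK cells of mice that carry an internal tandem duplication in Flt3 (labelled ITD, genotype Flt3-ITD) were set against LSK cells of wild type mice (WT), with 3 libraries in each group. These 6 libraries are part of 24 in the series, and 11369 of the 23991 gene symbols in the files reached 1 FPKM in at least 3 of the 6 and were tested. FPKM is a gene's fragments per kilobase of transcript, scaled by the mapped fragments of its library. LSK stands for Lin-Sca1+cKit+, the bone marrow gate without lineage markers and with Sca1 and cKit that holds stem and multipotent progenitor cells. The other libraries of the series are granulocyte-macrophage progenitors (GMP) of the same genotypes and both populations from mice with a floxed Ern1 gene and Vav-Cre, without (IRE1_KO) or with (IRE1_KO_ITD) the Flt3 duplication. All were sorted from bone marrow by flow cytometry on a C57BL/6 background. Neither ITD nor WT mice carried the floxed allele or the Cre per their labels, which state no age, no zygosity of the duplication and no pooling. Whether each library came from its own animal is not stated, so the p-values measure the spread between these libraries, which may be technical in part. The WT libraries were of both sexes, as read below, so they did not all come from the same animal. For the ITD libraries this is not known.

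FLT3 is a receptor tyrosine kinase of early progenitors whose ligand supports lymphoid and dendritic cell output. A duplication in its juxtamembrane segment makes the receptor signal without ligand, and unlike the ligand-bound wild type receptor it drives STAT5 strongly. Such duplications are common in human acute myeloid leukaemia, and in mice they cause a myeloproliferative disease with fewer stem cells in the LSK gate.

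FPKM summed to 528399 to 543663 in the WT libraries and to 566084 to 571899 in the ITD libraries, and 11239 to 11394 genes in WT and 11119 to 11173 in ITD stood at 1 FPKM or more. The groups did not overlap in either measure, and the part of this in the fold changes was not tested beyond the scalings below. The tables hold no read totals. Ratios of low values, which fall on ratios of small whole numbers where reads were counted, put WT replicates 2 and 3 and ITD replicates 2 and 3 at 1.08 to 1.11 times the depth of WT replicate 1. For ITD replicate 1 the ratios fitted 0.977 and 1.96 about equally well (40.1% and 40.3% of 2611 low genes on such ratios), so its relative depth is not settled. As read from X-inactivation and Y-linked transcripts, all 3 ITD libraries and WT replicate 1 were female and WT replicates 2 and 3 were male. Genotype and sex therefore ran partly together, and 1 WT library shares the sex of the ITD group. A fit over all 12 LSK libraries, where sex varies within other genotypes, was used to estimate the genotype effect with sex as a covariate, and its adjusted p is given below where it ended a call.

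ITD replicate 1 stood apart within its group. In it, 365 of the tested genes lay at least 1 log2 unit outside both other ITD libraries (117 above and 248 below), against 66 genes for replicate 2 and 58 for replicate 3. Among the WT libraries the counts were 195 for replicate 1, 65 for replicate 2 and 80 for replicate 3. Il2ra, the high-affinity chain of the interleukin 2 receptor, stood at 6.67, 1.13 and 1.07 FPKM in ITD replicates 1 to 3, and Pim2, a survival kinase induced through STAT5, at 170.2, 47.6 and 37.1. Hspa1a, an inducible heat shock protein, stood at 0.941, 42.4 and 35.6 and Irf8, a factor of monocyte and dendritic cell fate, at 29.5, 134 and 172. Replicate 1 was thus high for Il2ra and Pim2 and low for Hspa1a and Irf8. In the 3 IRE1_KO_ITD LSK libraries Il2ra stood at 17.03, 8.33 and 14.8 FPKM, Pim2 at 225, 208 and 261, Hspa1a at 0.603, 2.67 and 1.38 and Irf8 at 22.5, 17.9 and 30.2. For these 4 genes, chosen after their values were seen, ITD replicate 1 lay closer to the IRE1_KO_ITD libraries than to the other ITD libraries. Without ITD replicate 1 all 4 passed the limma test and were higher in ITD, Il2ra by 0.96 ± 0.12 (adjusted p = 0.00945), Pim2 by 1.16 ± 0.14 (0.00859), Hspa1a by 3.58 ± 0.26 (0.00306) and Irf8 by 2.25 ± 0.23 (0.00679). Leaving out the library that stood apart in genes chosen with its values known narrows their spread by selection. These 4 results are therefore descriptions and no independent test.

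**Figure D1:**
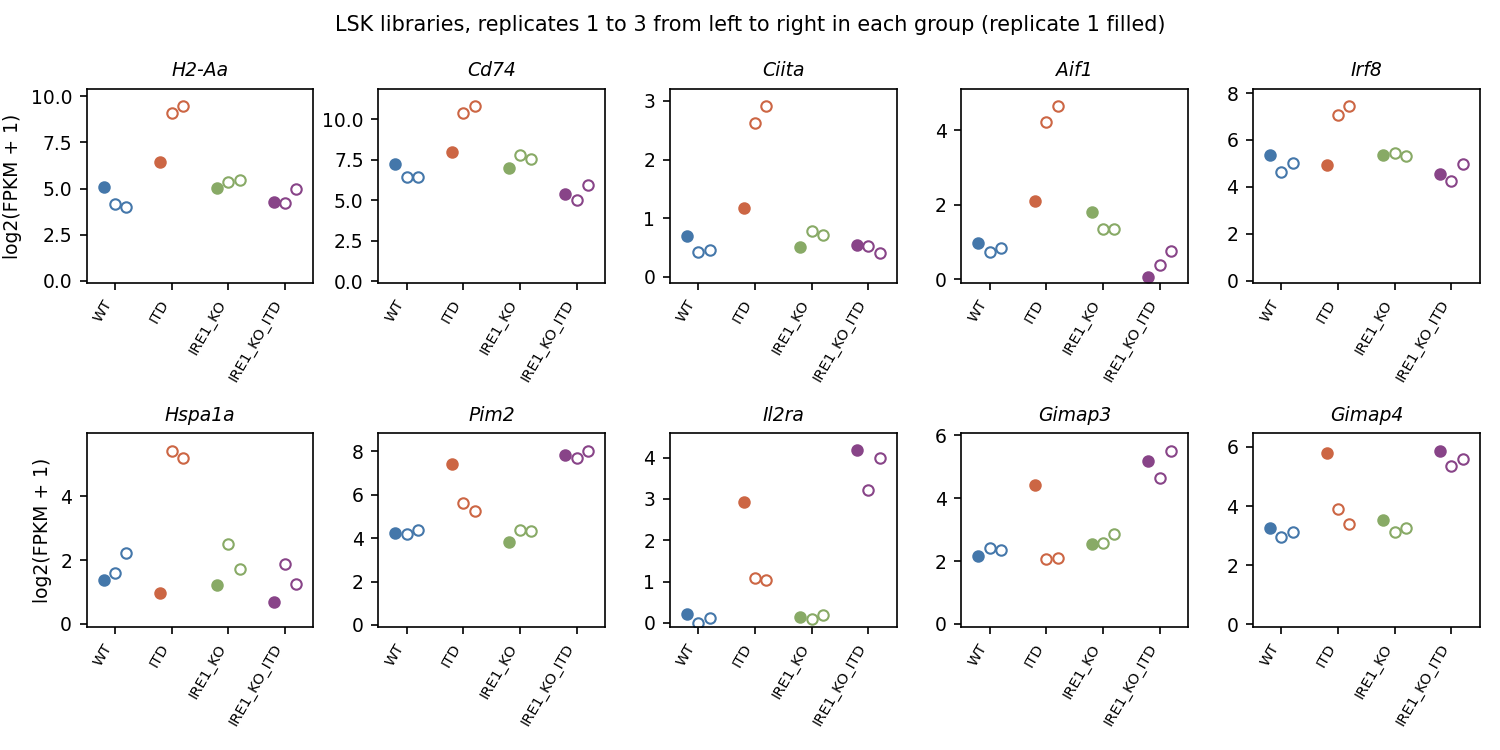
Each panel plots 1 gene as log2(FPKM + 1) in the 12 LSK libraries, by genotype, with replicate 1 of each group as the filled point at the left. The MHC class II genes H2-Aa, Cd74 and Ciita and the genes Aif1, Irf8 and Hspa1a were lower in ITD replicate 1 than in ITD replicates 2 and 3, and Pim2, Il2ra, Gimap3 and Gimap4 were higher.

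The genes of the gate itself moved less than many others. Kit, which encodes cKit, stood at 60.9, 50.7 and 75.6 FPKM in WT replicates 1 to 3 and at 45.5, 55.8 and 49.01 in ITD, and the log2 fold change was -0.30 ± 0.16 (limma adjusted p = 0.229). Ly6a, which encodes Sca1, stood at 196, 186 and 210.0 in WT and at 91.8, 174 and 127 in ITD (-0.63 ± 0.22, adjusted p = 0.0903). The groups overlapped for Kit and not for Ly6a, which was lower in all 3 ITD libraries, and neither passed the test. Cd48, a SLAM family surface protein that marks progenitors rather than stem cells, stood at 255, 256 and 244 in WT and at 865, 514 and 460.2 in ITD and rose by 1.23 ± 0.22. Procr, the endothelial protein C receptor of stem cells, stood at 16.9, 30.5 and 26.3 in WT and at 9.65, 6.35 and 6.25 in ITD and fell by 1.59 ± 0.25. Values after ± are SE for log2 fold changes. In sorted bulk RNA, fewer cells of a type and less RNA per cell cannot be told apart, and this holds for each gene group below.

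Flt3-ITD changed 1689 of the 11369 genes tested (limma, Benjamini-Hochberg adjusted p under 0.05), and 1134 rose (9.97% of those tested) and 555 fell (4.88%). Below, "rose", "fell" and "called" refer to this threshold, and fold changes are differences of log2(FPKM + 1), a scale that understates changes of low genes. The ITD and WT values of every called gene did not overlap, which was also true of 39.8% of all genes tested. Most changes were small: of the genes that rose, 168 changed by at least 2-fold, 29 by at least 4-fold and 11 by at least 8-fold, and of those that fell, 186, 50 and 8 did. The median log2 fold change over all genes tested was 0.089. Quantile normalization and a median-ratio size factor moved that median to 0.014 and -0.0012 and the share of called genes that were higher from 67.1% to 51.4% (717 of 1394) and 50.1% (754 of 1506), so small positive changes depend on the scaling. The number of calls also depended on single libraries: it was 2033 without ITD replicate 1 and 1429 without WT replicate 3, but 282 without ITD replicate 2, 256 without ITD replicate 3, 1173 without WT replicate 1 and 352 without WT replicate 2. In all 6 of these fits, 106 genes that rose and 95 that fell kept their calls. With sex as a covariate in the 6 libraries, 126 genes were called, and over all 12 LSK libraries 1386 were called with sex as a covariate and 2633 without.

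**Figure D2:**
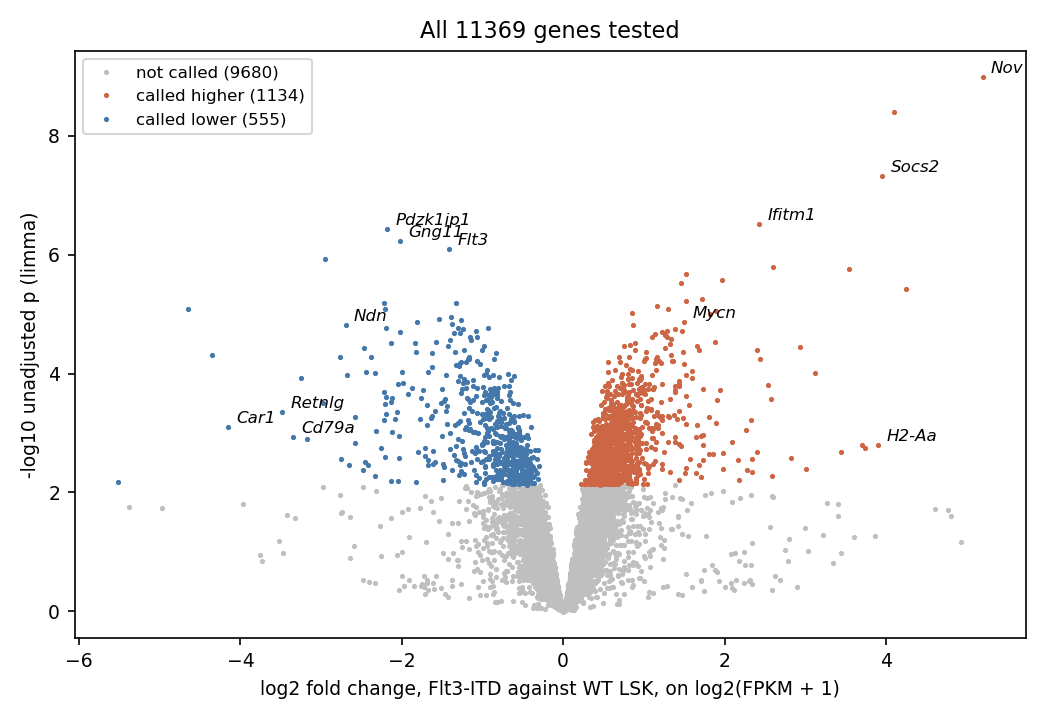
Each point is 1 of the 11369 genes tested, placed by its log2 fold change between Flt3-ITD and WT LSK (horizontal) and by the -log10 of its unadjusted limma p (vertical), with 1134 genes called higher in orange and 555 called lower in blue. Nov, Socs2 and Ifitm1 on the right and Flt3, Pdzk1ip1 and Gng11 on the left combine large changes with small p-values, while Car1 and H2-Aa changed as much with a wider spread between libraries.

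The largest rise was that of Nov, which encodes the matricellular protein CCN3 (chromosome 15, 54745910 to 54753762, mm10). Nov stood at 0.6898, 0.844 and 0.7697 FPKM in WT replicates 1 to 3 and at 61.4, 71.2 and 59.4 in ITD, a log2 fold change of 5.20 ± 0.11 (limma adjusted p = 1.18e-05). Socs2, a STAT5-induced suppressor of cytokine signalling (chromosome 10, 95383903 to 95417321), stood at 12.96, 18.4 and 15.5 in WT and at 294, 247 and 224 in ITD (3.95 ± 0.15, adjusted p = 0.000179). Every ITD library exceeded every WT library many times over for both genes. Emilin2, an extracellular matrix glycoprotein, stood at 7.31, 2.45 and 2.75 in WT and at 58.2, 29.99 and 37.3 in ITD and rose by 3.12 ± 0.38. Prnp, the prion protein gene, stood at 3.74, 2.31 and 2.19 in WT and 43.7, 22.2 and 20.3 in ITD and rose by 2.93 ± 0.31. Cox4i2, an isoform of a cytochrome c oxidase subunit, stood at 9.29, 13.8 and 9.68 in WT and 73.6, 60.6 and 77.3 in ITD and rose by 2.60 ± 0.17. For Emilin2 and Prnp, ITD replicate 1 was the highest library, and for Cox4i2 the 3 ITD libraries were close together. The other genes among the 10 highest fold changes were H2-Aa, H2-Eb1, H2-Ab1 and Cd74 of MHC class II and Aif1, described below. The calls of Nov, Socs2, Emilin2, Prnp and Cox4i2 held when any 1 of the 6 libraries was left out.

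The 10 largest falls were those of Car1, Retnlg, Cd79a, Igj, Mzb1, Wfdc18, Wfdc2, Gem, Mt2 and Ndn, and several of them are known from mature blood lineages. Car1, an erythroid carbonic anhydrase, stood at 175, 30.7 and 39.7 FPKM in WT and at 0.6302, 3.897 and 4.09 in ITD and fell by 4.15 ± 0.73 (adjusted p = 0.0183). Retnlg, a resistin-like protein of neutrophils, stood at 194, 110.3 and 104 in WT and at 3.94, 22.1 and 13.2 in ITD and fell by 3.49 ± 0.55. WT replicate 1 was the highest library for both genes and ITD replicate 1 the lowest. Wfdc2, a whey acidic protein family member, stood at 5.29, 8.798 and 7.97 in WT and 0, 0.06202 and 0.121 in ITD and fell by 2.95 ± 0.19. Gem, a small GTPase, stood at 25.4, 51.7 and 50.4 in WT and 3.86, 7.003 and 4.83 in ITD and fell by 2.77 ± 0.31. Ndn, which encodes necdin, a growth suppressor known from quiescent stem cells, stood at 6.25, 11.9 and 9.999 in WT and 0.264, 0.629 and 0.845 in ITD and fell by 2.69 ± 0.25. All 3 ITD libraries lay far under the lowest WT library for Wfdc2, Gem and Ndn. Leaving out any 1 of the 6 libraries kept the calls of Igj, Wfdc2, Gem and Ndn. Car1, Retnlg, Cd79a, Mzb1, Wfdc18 and Mt2 lost their calls in at least 1 fit each, without 1 or another of the 6 libraries (highest adjusted p of 0.0530 to 0.0896).

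**Figure D3:**
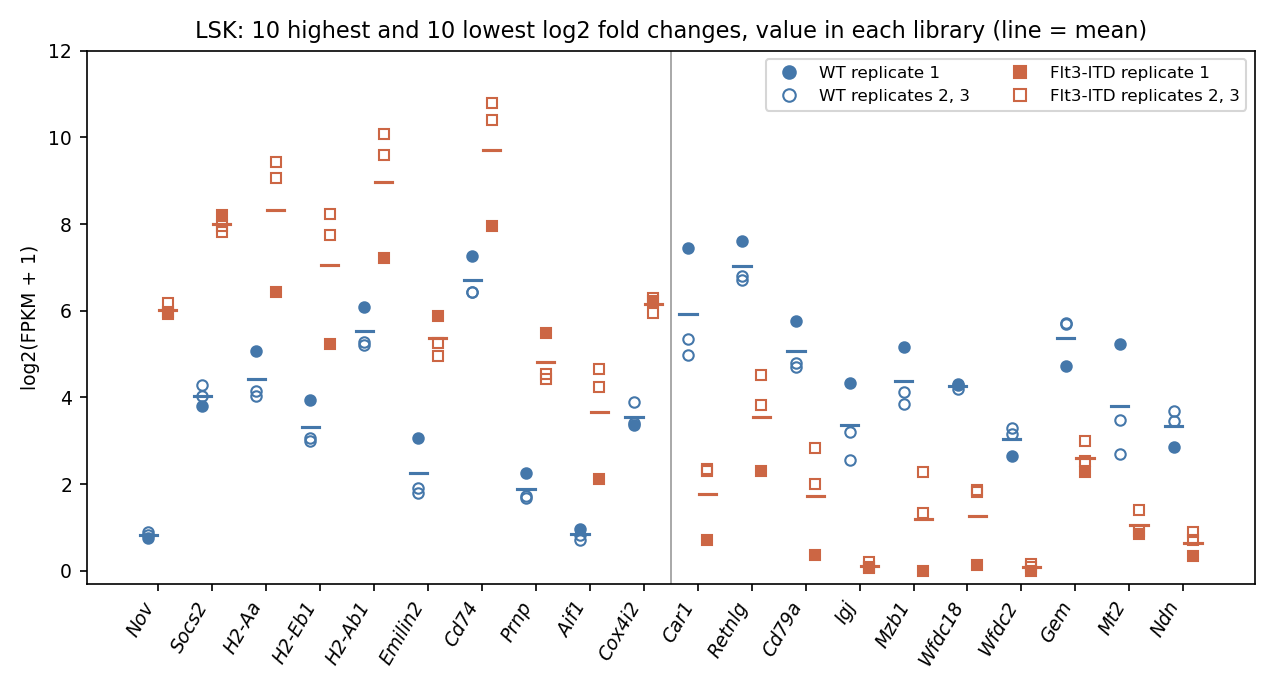
The plot shows log2(FPKM + 1) of the 10 genes with the highest and the 10 with the lowest fold change in each WT (circles) and Flt3-ITD (squares) LSK library, with replicate 1 filled and lines at the means. The 3 Flt3-ITD libraries sit together for Nov, Socs2 and Cox4i2, while replicate 1 sits under the other 2 for H2-Aa, H2-Eb1, H2-Ab1, Cd74 and Aif1.

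Flt3 itself (chromosome 5, 147330741 to 147400489) was lower in the cells with the mutated allele. It stood at 144, 145 and 161 FPKM in WT replicates 1 to 3 and at 55.2, 58.7 and 53.2 in ITD, and fell by 1.41 ± 0.083 (adjusted p = 0.00130). The values within each group lay close together and the groups did not overlap. A value per gene does not separate the 2 alleles or show the duplication. Of the genes for the receptor's ligand, adaptors and immediate signal relays, 24 of 25 list entries were tested, 1 rose and 2 fell, Flt3 included, with a median of -0.0023. Among all genes tested, 9.97% rose and 4.88% fell. Grb10, an adaptor that binds receptor tyrosine kinases, stood at 3.11, 2.91 and 4.64 in WT and 0.228, 0.503 and 0.692 in ITD and fell by 1.62 ± 0.19. Socs6, a suppressor of cytokine signalling, rose by 0.39 ± 0.10. Flt3 and Grb10 kept their calls whichever of the 6 libraries was left out. Socs6 was not called in any of the 6 fits that leave out 1 library (a highest adjusted p of 0.168).

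STAT5 is the transcription factor through which the duplicated receptor is known to signal. Of 24 tested genes on the list of its targets, 7 rose and 2 fell (median 0.14). Cish, a feedback inhibitor of STAT5 signalling (chromosome 9, 107296659 to 107302784), stood at 11.3, 18.9 and 13.8 FPKM in WT and at 144, 55.1 and 55.3 in ITD and rose by 2.33 ± 0.39. Bcl2, an inhibitor of apoptosis, stood at 14.7, 11.1 and 13.4 in WT and at 41.7, 31.7 and 31.2 in ITD and rose by 1.34 ± 0.15. ITD replicate 1 was the highest library for both, and the groups did not overlap. Id2, an inhibitor of basic helix-loop-helix factors, stood at 19.4, 28.6 and 34.5 in WT and 58.4, 103 and 128 in ITD and rose by 1.74 ± 0.32, and here ITD replicate 1 was the lowest of its group. Ccnd2, a D-type cyclin, rose by 0.44 ± 0.081 and the survival gene Bcl2l1 by 0.61 ± 0.14. Ccnd1, another D-type cyclin on the list, stood at 6.86, 11.4 and 5.62 in WT and at 0.843, 2.65 and 2.38 in ITD and fell by 1.61 ± 0.33. Tnfrsf13b, a TNF receptor family gene of B cells, fell by 0.42 ± 0.10. The call of Bcl2 held when any 1 of the 6 libraries was left out. The calls of Cish, Id2, Ccnd2, Bcl2l1, Ccnd1 and Tnfrsf13b were each lost in at least 1 fit, without ITD replicate 2, ITD replicate 3, WT replicate 1, WT replicate 2 or WT replicate 3 (highest adjusted p of 0.0506 to 0.138). The calls of Ccnd2 (0.0990) and Tnfrsf13b (0.0608) did not hold with sex as a covariate over all 12 LSK libraries (adjusted p in brackets).

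The promoter of Cish is shown because it holds the letters that STAT factors bind. The window runs from 250 bases before to 50 bases after the gene's annotated start (RefSeq, GRCm38.p6, chr9:107296409-107296708, plus strand), written 5′ to 3′, and capitals mark TTCNNNGAA, searched on both strands.
Cish: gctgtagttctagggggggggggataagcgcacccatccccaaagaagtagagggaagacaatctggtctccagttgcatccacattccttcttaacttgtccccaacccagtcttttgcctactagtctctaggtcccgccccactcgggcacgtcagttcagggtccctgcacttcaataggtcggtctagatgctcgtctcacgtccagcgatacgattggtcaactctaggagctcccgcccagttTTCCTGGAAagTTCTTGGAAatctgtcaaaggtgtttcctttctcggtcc
It holds 2 matches, which begin at bases 1 and 12 counted from the annotated start. TTCNNNGAA occurred in 8.3% of the 32851 promoter windows of this length. Of the tested genes with a window, 9.24% of 920 that rose, 8.28% of 435 that fell and 8.33% of 7624 that were not called held a match. Of the STAT5 list, 3 of 18 genes with a window held it, 1 of the 5 that rose (Cish) and 2 of the 12 that were not called. The windows used here do not include one for Socs2. A match is a description of the letters and not of binding.

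Genes that extracellular signal-regulated kinase (ERK) induces as feedback or immediate early output lay lower in ITD, and replicate 1 of each group was lower than its partners. All 22 tested genes of this list had a negative log2 fold change (median -0.80), and 4 fell and 0 rose. Dusp6, a phosphatase that switches ERK off, stood at 54.5, 111 and 133 FPKM in WT and at 10.2, 24.1 and 22.6 in ITD and fell by 2.32 ± 0.42. Spry2, an inhibitor of receptor tyrosine kinase signalling, stood at 4.43, 7.92 and 6.81 in WT and 1.01, 1.47 and 1.37 in ITD and fell by 1.67 ± 0.21. Ier3 stood at 259, 489 and 426 in WT and 113, 196 and 170.5 in ITD and fell by 1.27 ± 0.29, and Dusp2, a nuclear phosphatase of ERK, fell by 1.48 ± 0.34. Replicate 1 was the lowest library of its group for these 4 genes in both genotypes. The summed FPKM of the list was 2651 in WT replicate 1 against 6308 and 6302 in WT replicates 2 and 3, and 1031 in ITD replicate 1 against 3973 and 3545 in ITD replicates 2 and 3. The immediate early genes of the list also respond to cell handling, and the part of handling in these values was not tested. Omission of any 1 library kept the call of Spry2. Dusp6, Ier3 and Dusp2 lost their calls in at least 1 fit each, without ITD replicate 2, ITD replicate 3, WT replicate 1, WT replicate 2 or WT replicate 3 (highest adjusted p of 0.0773 to 0.122). With sex as a covariate over 12 LSK libraries, the adjusted p was past 0.05 for Ier3 (0.0698) and Dusp2 (0.0512).

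Cytokine and growth factor receptors changed in both directions, with 5 of 35 tested members higher and 6 lower (median -0.083). Of all genes tested, 9.97% rose and 4.88% fell, so the share that rose was not far from that of all genes. Csf2rb, the shared beta chain of the receptors for GM-CSF, interleukin 3 and interleukin 5, stood at 13.9, 13.3 and 14.9 FPKM in WT and at 25.8, 27.4 and 27.5 in ITD and rose by 0.89 ± 0.092. Il10ra, a chain of the interleukin 10 receptor, stood at 6.74, 5.22 and 8.64 in WT and 16.7, 21.8 and 19.3 in ITD and rose by 1.38 ± 0.19. Csf3r, the receptor for G-CSF, stood at 39.2, 45.98 and 46.02 in WT and 23.5, 26.1 and 24.9 in ITD and fell by 0.79 ± 0.10. Epor, the erythropoietin receptor, stood at 9.02, 3.37 and 3.94 in WT and 0.492, 0.348 and 0.301 in ITD and fell by 2.12 ± 0.31. Values of the groups did not overlap for any of these 4. Igf1r, the receptor for insulin-like growth factor 1, fell by 0.86 ± 0.12 and Il21r by 0.85 ± 0.12. Csf2rb, Il10ra and Csf3r kept their calls whichever of the 6 libraries was left out. At least 1 fit, without ITD replicate 2 or ITD replicate 3, ended each of the calls of Epor, Igf1r and Il21r (highest adjusted p of 0.0518 to 0.0557).

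Of the genes known from haematopoietic stem cells, more fell than rose in ITD LSK. Of 41 tested members of the list, 20 fell and 3 rose (median -0.67, against 0.089 over all genes). Pdzk1ip1, a small membrane protein enriched in stem cells, stood at 45.7, 49.2 and 44.4 FPKM in WT and at 10.2, 10.2 and 8.15 in ITD and fell by 2.18 ± 0.11 (adjusted p = 0.000852). Mmrn1, which encodes multimerin, stood at 6.82, 6.09 and 7.86 in WT and 1.85, 0.893 and 0.995 in ITD and fell by 1.84 ± 0.19. Gata2, a transcription factor that stem cells need, stood at 28.4, 29.7 and 29.7 in WT and 15.5, 12.8 and 14.8 in ITD and fell by 0.98 ± 0.10. The values of the 3 libraries of a group lay close together for Pdzk1ip1 and Gata2. Of the homeobox genes tested, Hoxa5 fell by 0.97 ± 0.14 and Nkx2-3 by 1.08 ± 0.27. Robo4, a receptor of stem and endothelial cells, fell by 0.81 ± 0.11, Eng (endoglin) by 0.67 ± 0.12 and Slamf1, which encodes the stem cell marker CD150, by 0.97 ± 0.22. The calls of Pdzk1ip1, Mmrn1, Gata2 and Hoxa5 held when any 1 of the 6 libraries was left out. The calls of Nkx2-3, Robo4, Eng, Slamf1, Procr and Cd48 were each lost in at least 1 fit, without ITD replicate 2, ITD replicate 3, WT replicate 1, WT replicate 2 or WT replicate 3 (highest adjusted p of 0.0540 to 0.125). The calls of Nkx2-3 (0.0651), Eng (0.0612) and Slamf1 (0.0572) did not hold with sex as a covariate over all 12 LSK libraries (adjusted p in brackets).

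Members of the same list that rose were Ifitm1, Mycn and Ifitm3. Ifitm1, an interferon-inducible membrane protein that is also a stem cell marker, stood at 924, 1188 and 1052 FPKM in WT and at 6428, 5512 and 5074 in ITD and rose by 2.43 ± 0.12 (adjusted p = 0.000852). Mycn, a MYC family factor, stood at 19.5, 20.4 and 21.5 in WT and 73.03, 54.4 and 53.6 in ITD and rose by 1.502 ± 0.14. Ifitm3 stood at 1110.4, 1102 and 1091 in WT and 1553, 1838 and 1652 in ITD and rose by 0.61 ± 0.078. Hoxa9, which sustains progenitor self-renewal, stood at 28.3, 41.8 and 41.4 in WT and 25.3, 24.6 and 25.5 in ITD and did not pass the test (-0.53 ± 0.16, adjusted p = 0.0671), nor did its cofactor Meis1 (-0.36 ± 0.13, adjusted p = 0.110). Leaving out any 1 of the 6 libraries kept the calls of Ifitm1, Mycn and Ifitm3.

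Genes of the transforming growth factor beta (TGF-beta) and quiescence list fell where they passed, 6 of 22 tested with 0 higher (median -0.53). Smad7, an inhibitor that TGF-beta induces, stood at 2.696, 12.4 and 8.79 FPKM in WT and at 0.702, 1.17 and 1.98 in ITD and fell by 1.82 ± 0.48. Id3 stood at 23.1, 56.5 and 50.5 in WT and 3.24, 11.2 and 15.4 in ITD and fell by 2.13 ± 0.55. Replicate 1 was the lowest library of its group for both, in WT as in ITD. Thbs1, which activates latent TGF-beta, fell by 0.90 ± 0.14 and Foxo1, a factor that holds cells out of cycle, by 0.62 ± 0.15. At least 1 fit, without 1 or another of the 6 libraries, ended each of the calls of Smad7, Id3, Thbs1 and Foxo1 (highest adjusted p of 0.0540 to 0.157). In the 12-library fit with sex as a covariate, the adjusted p rose past 0.05 for Smad7 (0.0776) and Id3 (0.0566).

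Part of the early lymphoid genes fell. Of 23 tested members of the lymphoid priming list, 10 fell and 0 rose (median -0.85). Dntt, the DNA polymerase that adds bases at antigen receptor joints, stood at 236, 125 and 199 FPKM in WT and at 46.2, 78.4 and 69.3 in ITD and fell by 1.502 ± 0.28. Il12a, a subunit of interleukin 12, stood at 85.8, 84.2 and 92.4 in WT and 20.8, 43.8 and 34.1 in ITD and fell by 1.45 ± 0.25. Blnk, a B cell linker protein, stood at 15.9, 6.34 and 6.43 in WT and 0.147, 1.46 and 2.31 in ITD and fell by 2.21 ± 0.47. ITD replicate 1 was the lowest library for Dntt, Il12a and Blnk. Bcl11a, a factor that lymphoid progenitors need, fell by 0.55 ± 0.10, Lax1, a signalling adaptor of lymphocytes, by 0.94 ± 0.17 and Hes1, a Notch target, by 1.46 ± 0.21. Il7r, the interleukin 7 receptor, stood at 2.85, 1.05 and 1.57 in WT and 0.197, 0.658 and 0.738 in ITD and missed the test (-0.85 ± 0.26, adjusted p = 0.0711), as did Notch1 (-0.59 ± 0.21, adjusted p = 0.0977). The calls of Dntt, Il12a, Blnk, Bcl11a, Lax1 and Hes1 were each lost in at least 1 fit, without ITD replicate 2, ITD replicate 3, WT replicate 1, WT replicate 2 or WT replicate 3 (highest adjusted p of 0.0533 to 0.0791).

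Transcripts of more mature cells were present in WT LSK, and many were lower in ITD. Of 18 tested B cell genes, 12 fell and 1 rose (median -1.13). Cd79a, a signalling chain of the B cell receptor, stood at 53.2, 24.9 and 26.6 FPKM in WT and at 0.278, 3.02 and 6.17 in ITD and fell by 3.35 ± 0.63. Ms4a1, which encodes CD20, stood at 7.81, 3.25 and 4.29 in WT and 0.0188, 0.102 and 0.248 in ITD and fell by 2.38 ± 0.27. Faim3 stood at 5.58, 3.12 and 3.44 in WT and 0.189, 0.171 and 0.309 in ITD and fell by 2.02 ± 0.19, Bank1 fell by 1.54 ± 0.14, Blk, a B lineage kinase, by 1.22 ± 0.13 and Pou2af1, a B cell coactivator, by 1.98 ± 0.26. In the ITD group, replicate 1 was the lowest for Cd79a, Ms4a1 and Pou2af1. Cd180, a member that rose, changed by 0.51 ± 0.12. Plasma cell genes fell in 4 of 7 tested, among them Mzb1 (35.1, 13.4 and 16.3 in WT and 0, 1.52 and 3.87 in ITD) and Igj, the immunoglobulin J chain (19.2, 8.26 and 4.87 in WT and 0.05497, 0.0496 and 0.145 in ITD). The summed FPKM of the B cell list ran from 382 to 524 in WT and from 219 to 249 in ITD. Omission of any 1 library kept the calls of Ms4a1, Faim3, Bank1, Blk, Pou2af1 and Igj. Cd79a, Cd180 and Mzb1 lost their calls in at least 1 fit each, without ITD replicate 2, ITD replicate 3, WT replicate 1, WT replicate 2 or WT replicate 3 (highest adjusted p of 0.0674 to 0.133). With sex as a covariate over 12 LSK libraries, the adjusted p was past 0.05 for Cd180 (0.116).

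The erythroid list had the lowest median of the lists described here, with 14 of 20 tested members lower and 1 higher (median -2.02). Gata1, the erythroid and megakaryocyte master factor, stood at 16.1, 8.26 and 9.34 FPKM in WT and at 0.8805, 1.44 and 2.54 in ITD and fell by 2.22 ± 0.31. Klf1, an erythroid factor, stood at 21.05, 5.297 and 5.07 in WT and 0.209, 0.684 and 0.942 in ITD and fell by 2.58 ± 0.50. Rhd stood at 12.8, 5.12 and 4.63 in WT and 0.133, 0.215 and 0.327 in ITD and fell by 2.67 ± 0.34. WT replicate 1 was the highest library for Gata1, Klf1 and Rhd, and their calls held without it. Blvrb, a biliverdin reductase, fell by 1.92 ± 0.27. Tfrc, the transferrin receptor that dividing cells also use, stood at 11.1, 8.38 and 11.6 in WT and 25.4, 25.03 and 23.3 in ITD and rose by 1.18 ± 0.14. Of 16 tested megakaryocyte genes, 3 fell (median -0.39), with Gng11, a G protein subunit, at 22.4, 25.1 and 25.6 in WT and 4.66, 5.59 and 5.49 in ITD, which fell by 2.02 ± 0.11. Gata1, Rhd, Blvrb, Tfrc and Gng11 kept their calls whichever of the 6 libraries was left out. The call of Klf1 was lost without ITD replicate 2, ITD replicate 3 or WT replicate 2 (a highest adjusted p of 0.0719).

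Late neutrophil genes fell where they passed the test, and the members of the primary granule and GMP list that passed it rose. Of 27 tested late neutrophil genes, 16 fell and 0 rose (median -1.71). Mmp8, a collagenase of neutrophil granules, stood at 20.7, 11.4 and 9.82 FPKM in WT and at 4.39, 2.86 and 2.46 in ITD and fell by 1.78 ± 0.29. Mmp9, a gelatinase, stood at 14.97, 5.99 and 8.49 in WT and 0.515, 2.15 and 1.22 in ITD and fell by 2.22 ± 0.37. Wfdc18 stood at 18.8, 17.2 and 18.4 in WT and 0.102, 2.66 and 2.502 in ITD and fell by 2.98 ± 0.45, and Stfa2l1, a stefin of neutrophils, fell by 2.14 ± 0.32. The summed FPKM of the list was 5381 to 10705 in WT and 858 to 2756 in ITD, with WT replicate 1 the highest and ITD replicate 1 the lowest library. Late neutrophil transcripts were thus present in all 6 sorted libraries. Of 25 tested primary granule and GMP genes, 5 rose and 0 fell (median 0.49). The granule protein genes Mpo (0.65 ± 0.38, limma adjusted p = 0.273), Prtn3 (0.58 ± 0.46, 0.406) and Ctsg (1.34 ± 0.40, 0.0643) on this list did not pass. Rab44 stood at 17.4, 11.7 and 16.5 in WT and at 40.4, 76.8 and 71.2 in ITD and rose by 1.94 ± 0.27. Cst7 (cystatin F) stood at 98.99, 69.004 and 80.2 in WT and 144, 189 and 197 in ITD and rose by 1.09 ± 0.17, Clec12a, a myeloid lectin receptor, rose by 1.57 ± 0.34 and Hk3, a hexokinase of myeloid cells, by 0.82 ± 0.21. Mcpt8, a basophil granule protease, stood at 17.3, 10.5 and 13.4 in WT and 48.4, 41.6 and 44.7 in ITD and rose by 1.66 ± 0.17. The basophil and mast cell list as a whole had 2 higher and 2 lower of 10 tested, where 9.97% of all genes rose and 4.88% fell. The calls of Rab44 and Mcpt8 held when any 1 of the 6 libraries was left out. The calls of Mmp8, Mmp9, Wfdc18, Stfa2l1, Cst7, Clec12a and Hk3 were each lost in at least 1 fit, without ITD replicate 2, ITD replicate 3, WT replicate 1, WT replicate 2 or WT replicate 3 (highest adjusted p of 0.0530 to 0.151). The calls of Clec12a (0.0526) and Hk3 (0.0502) did not hold with sex as a covariate over all 12 LSK libraries (adjusted p in brackets).

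MHC class II genes, which present antigen in dendritic cells, macrophages and B cells, were much higher in ITD replicates 2 and 3 and less so in replicate 1. H2-Aa stood at 32.8, 16.7 and 15.2 FPKM in WT and at 85.3, 537 and 695 in ITD and rose by 3.90 ± 0.77 (adjusted p = 0.0236). Cd74, the invariant chain, stood at 152, 85.8 and 85.97 in WT and at 249, 1342 and 1769 in ITD and rose by 3.004 ± 0.71. Ciita, the coactivator that switches class II genes on, stood at 0.625, 0.336 and 0.369 in WT and 1.26, 5.16 and 6.53 in ITD and rose by 1.71 ± 0.43. In each case ITD replicate 1 lay above all 3 WT libraries and well under ITD replicates 2 and 3. H2-Eb1 rose by 3.74 ± 0.75, H2-Ab1 by 3.44 ± 0.71 and Ifi30, a thiol reductase of antigen processing, by 1.73 ± 0.24. In all, 6 of 23 tested members of the class II list rose and 0 fell (median 0.16), and without ITD replicate 1, 11 rose and 1 fell. Leaving out any 1 of the 6 libraries kept the call of Ifi30. H2-Aa, Cd74, Ciita, H2-Eb1 and H2-Ab1 lost their calls in at least 1 fit each, without ITD replicate 2, ITD replicate 3, WT replicate 1, WT replicate 2 or WT replicate 3 (highest adjusted p of 0.0922 to 0.140).

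The promoters of H2-Aa and H2-Eb1 are shown because both hold the Y box that class II promoters share, here CTGATTGG in capitals, searched on both strands (RefSeq, GRCm38.p6, 5′ to 3′, H2-Aa at chr17:34287774-34288073, minus strand and H2-Eb1 at chr17:34305617-34305916, plus strand).
H2-Aa: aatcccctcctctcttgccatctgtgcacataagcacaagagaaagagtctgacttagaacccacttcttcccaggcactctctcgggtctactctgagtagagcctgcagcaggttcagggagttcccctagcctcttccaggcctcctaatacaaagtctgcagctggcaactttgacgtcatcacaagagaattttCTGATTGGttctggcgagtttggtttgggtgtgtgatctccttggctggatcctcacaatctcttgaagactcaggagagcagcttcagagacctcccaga
H2-Eb1: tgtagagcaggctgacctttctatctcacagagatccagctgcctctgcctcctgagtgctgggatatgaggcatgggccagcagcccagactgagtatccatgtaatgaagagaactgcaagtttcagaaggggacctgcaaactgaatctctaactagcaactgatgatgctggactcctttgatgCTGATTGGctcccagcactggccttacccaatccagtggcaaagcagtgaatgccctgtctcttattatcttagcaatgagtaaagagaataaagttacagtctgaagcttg
The match begins 51 bases before the annotated start in H2-Aa and 62 bases before it in H2-Eb1. CTGATTGG occurred in 4.1% of all promoter windows of this length. Per gene, a window held it in 7.06% of 8979 tested genes, 8.91% of those that rose and 4.83% of those that fell. It was held by 3 of the 17 tested class II list genes with a window, 2 of the 3 that rose and 1 of the 14 that did not pass.

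Monocyte and dendritic cell genes moved in both directions. Of 35 tested monocyte and macrophage genes, 6 rose and 2 fell (median 0.18), the share that fell being near the 4.88% of all genes. Ccr2, the chemokine receptor of inflammatory monocytes, stood at 3.59, 1.41 and 2.09 FPKM in WT and at 10.98, 10.03 and 37.5 in ITD and rose by 2.41 ± 0.50, with ITD replicate 3 apart from the other ITD libraries. Aif1, a macrophage protein, stood at 0.957, 0.643 and 0.778 in WT and 3.31, 17.9 and 24.1 in ITD and rose by 2.83 ± 0.61. Lgals3 (galectin 3) stood at 16.3, 6.95 and 6.902 in WT and 27.9, 38.9 and 31.8 in ITD and rose by 1.71 ± 0.32, Mpeg1 (perforin 2) rose by 1.86 ± 0.39 and Emr1, which encodes F4/80, by 1.18 ± 0.21. Lst1 stood at 229.7, 273 and 219.9 in WT and 95.2, 140.2 and 136 in ITD and fell by 0.97 ± 0.17, and Itgam, which encodes CD11b, fell by 0.92 ± 0.23. Of 28 tested dendritic cell genes, 5 rose and 5 fell, Flt3 included, and without ITD replicate 1, 12 rose and 5 fell. Naaa, an amidase, stood at 4.22, 4.27 and 4.84 in WT and 18.3, 29.6 and 39.2 in ITD and rose by 2.40 ± 0.26, and Clec10a, a lectin of dendritic cells, rose by 0.90 ± 0.19. Cd24a fell by 0.53 ± 0.11 and Tcf4, the factor of plasmacytoid dendritic cells, by 0.45 ± 0.10. Naaa kept its call whichever of the 6 libraries was left out. At least 1 fit, without ITD replicate 2, ITD replicate 3, WT replicate 1, WT replicate 2 or WT replicate 3, ended each of the calls of Ccr2, Aif1, Lgals3, Mpeg1, Emr1, Lst1, Itgam, Clec10a, Cd24a and Tcf4 (highest adjusted p of 0.0674 to 0.126). In the 12-library fit with sex as a covariate, the adjusted p rose past 0.05 for Itgam (0.0768) and Cd24a (0.0690).

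Markers of other cell types were read as summed FPKM, as a measure of what the gate held. The erythroid list summed to 1195 to 2512 in WT and to 438 to 935 in ITD. The dendritic cell list summed to 1203 to 1284 in WT and to 1117 in ITD replicate 1, 2474 in replicate 2 and 3003 in replicate 3. The largest part of that sum was Cst3, at 588, 551 and 529 in WT and 641, 1646 and 2101 in ITD. Cst3 was not called (limma adjusted p = 0.0833), so the sum is mainly a reading of 1 gene. Of the T, NK and innate lymphoid list, 9 of 25 entries were tested, and 0 rose and 0 fell in the limma fit, with 4 at an unadjusted p under 0.05 and a summed FPKM of 336 to 366 in WT and 455 to 535 in ITD. Most of that sum was Nkg7, a granule gene that the primary granule list also holds, at 304, 296 and 278 in WT and 459, 355 and 342 in ITD. Of the stromal and endothelial list, 10 were tested and 1 fell: Cxcl12, a niche chemokine, at 2.76, 1.01 and 4.56 in WT and 0, 0.218 and 0.273 in ITD. The part of other cells in the sort in the changes of B cell, erythroid, late neutrophil and class II genes was not tested. The call of Cxcl12 was lost without ITD replicate 1, ITD replicate 2, ITD replicate 3, WT replicate 1 or WT replicate 3 (a highest adjusted p of 0.0885). The call of Cxcl12 (0.173) did not hold with sex as a covariate over all 12 LSK libraries (adjusted p in brackets).

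MHC class I genes rose in 14 of 29 tested members, and 1 fell (median 0.33). Under the median-ratio size factor 7 rose, and under quantile normalization 9. H2-Q7 stood at 44.4, 30.8 and 20.5 FPKM in WT and at 137, 124 and 92.9 in ITD and rose by 1.90 ± 0.28. H2-Q8 stood at 32.7, 23.6 and 10.4 in WT and 108, 149 and 120.5 in ITD and rose by 2.57 ± 0.38. These near-identical class Ib genes share reads, so which of them changed is uncertain. The classical gene H2-D1 stood at 746, 784 and 775 in WT and 968, 949.6 and 1018 in ITD and rose by 0.35 ± 0.064 (adjusted p = 0.0602 under the median-ratio size factor), Psme2, a proteasome activator, by 0.40 ± 0.072 and H2-Q4 by 0.50 ± 0.08, and H2-T24 fell by 0.70 ± 0.14. Interferon response genes gave 5 higher and 1 lower of 62 tested (median -0.046), shares near or under those of all genes. Besides Ifitm1 and Ifitm3, Igtp, an interferon-induced GTPase, stood at 19.9, 16.9 and 21.6 in WT and 43.4, 50.2 and 39.9 in ITD and rose by 1.15 ± 0.13. Slfn2 rose by 1.64 ± 0.31, Gbp7 rose by 0.63 ± 0.14 and Gbp2 fell by 0.81 ± 0.21. Omission of any 1 library kept the call of Igtp. H2-Q7, H2-Q8, H2-D1, Psme2, H2-Q4, H2-T24, Slfn2, Gbp7 and Gbp2 lost their calls in at least 1 fit each, without 1 or another of the 6 libraries (highest adjusted p of 0.0501 to 0.133). With sex as a covariate over 12 LSK libraries, the adjusted p was past 0.05 for H2-D1 (0.283), Psme2 (0.0608), H2-Q4 (0.0662) and H2-T24 (0.0683).

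Ribosome biogenesis was the list with the largest share of higher genes among those described here, with 39 of 50 tested members higher and 0 lower (median 0.64). Nolc1, a nucleolar phosphoprotein, stood at 40.6, 34.5 and 39.01 FPKM in WT and at 67.7, 70.4 and 75.4 in ITD and rose by 0.89 ± 0.10. Mybbp1a, a nucleolar regulator of RNA polymerase I, stood at 62.7, 57.7 and 66.3 in WT and 105, 115 and 115 in ITD and rose by 0.83 ± 0.087. Gnl3 (nucleostemin) stood at 59.5, 48.8 and 46.6 in WT and 112, 95.9 and 95.4 in ITD and rose by 0.96 ± 0.12. The changes were under 2-fold with a narrow spread, and the groups did not overlap. Nop2, an rRNA methyltransferase, rose by 0.86 ± 0.10, Wdr43, a subunit of the processome of small subunit rRNA, by 0.82 ± 0.092 and Ppan, a factor of large subunit assembly, by 0.64 ± 0.077. Under the median-ratio size factor the list's median was 0.54 and 32 members rose. Cytosolic ribosomal protein genes themselves differed little: 4 of 81 tested rose and 1 fell (median 0.077), the one that fell being Rps4l (26.7, 22.03 and 33.6 in WT and 6.28, 7.31 and 7.36 in ITD). Of 76 mitochondrial ribosomal protein genes, 5 rose and 0 fell (median 0.17), a share under the 9.97% of all genes. Nolc1, Mybbp1a, Gnl3, Nop2, Wdr43, Ppan and Rps4l kept their calls whichever of the 6 libraries was left out.

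Windows of 3 of these genes are shown because they hold the E-box CACGTG, the letters MYC family factors bind, in capitals (RefSeq, GRCm38.p6, 5′ to 3′, Nop2 at chr6:125131633-125131932, plus strand, Mybbp1a at chr11:72441077-72441376, plus strand and Wdr43 at chr17:71615965-71616264, plus strand). CACGTG reads the same on both strands.
Nop2: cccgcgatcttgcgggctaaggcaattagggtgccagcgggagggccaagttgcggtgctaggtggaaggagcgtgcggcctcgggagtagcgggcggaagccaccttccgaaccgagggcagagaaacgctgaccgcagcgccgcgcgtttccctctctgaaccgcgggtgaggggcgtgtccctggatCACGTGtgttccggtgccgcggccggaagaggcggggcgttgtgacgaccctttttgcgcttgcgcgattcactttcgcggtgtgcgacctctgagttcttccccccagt
Mybbp1a: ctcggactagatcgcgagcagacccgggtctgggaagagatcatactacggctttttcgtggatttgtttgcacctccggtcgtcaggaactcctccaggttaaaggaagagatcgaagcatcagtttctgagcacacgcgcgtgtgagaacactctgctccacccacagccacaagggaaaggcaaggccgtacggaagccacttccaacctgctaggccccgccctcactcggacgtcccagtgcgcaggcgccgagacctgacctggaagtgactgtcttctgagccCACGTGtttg
Wdr43: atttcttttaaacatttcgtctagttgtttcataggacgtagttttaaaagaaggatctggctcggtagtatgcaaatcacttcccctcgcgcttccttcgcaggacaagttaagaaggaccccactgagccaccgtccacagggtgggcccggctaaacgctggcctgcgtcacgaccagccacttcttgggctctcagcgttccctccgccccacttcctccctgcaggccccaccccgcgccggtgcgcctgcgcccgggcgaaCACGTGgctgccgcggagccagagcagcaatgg
The match begins 60 bases before the annotated start in Nop2, at base 41 from it in Mybbp1a and at base 18 in Wdr43. CACGTG occurred in 7.15% of all promoter windows. Per gene, a window held it in 11 of 44 ribosome biogenesis genes (25.0%), 9 of the 35 with a window that rose and 2 of the 9 that were not called. The same share was 12.1% of 8979 tested genes with a window, 16.5% of those that rose and 8.51% of those that fell. Whether a factor binds these letters in LSK cells was not measured.

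**Figure D4:**
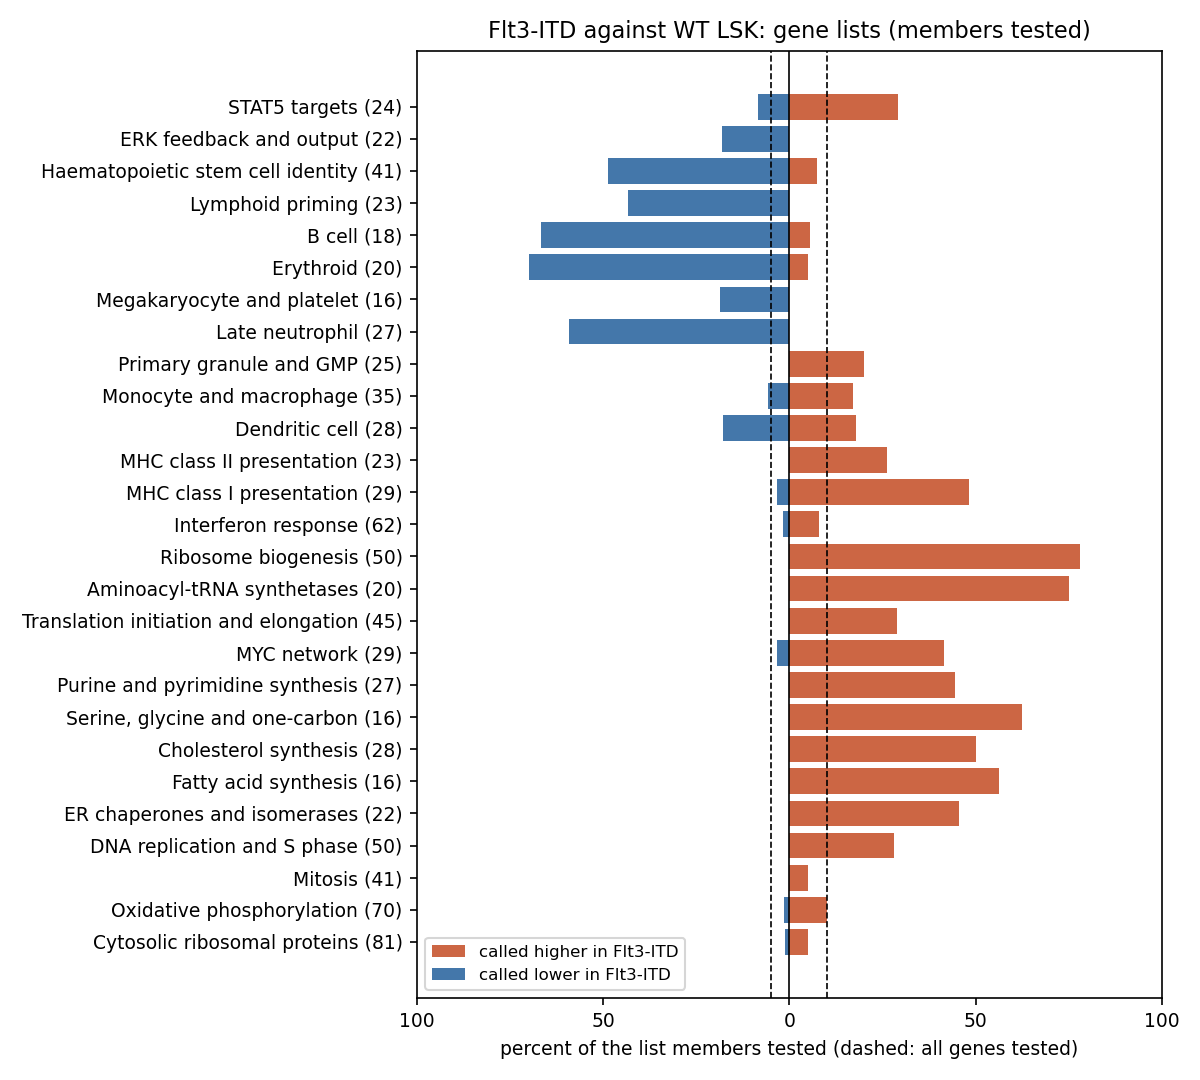
Bars give the percent of each list's tested members (number in brackets) that were called higher (orange, to the right) or lower (blue, to the left) in Flt3-ITD LSK, and dashed lines mark the 9.97% higher and 4.88% lower of all genes tested. Ribosome biogenesis, aminoacyl-tRNA synthetases and one-carbon genes reach furthest to the right and erythroid, B cell and late neutrophil genes furthest to the left.

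Other genes of protein synthesis that passed the test rose as well. Of 20 aminoacyl-tRNA synthetases, which charge tRNAs with amino acids, 15 rose and 0 fell (median 0.49). Mars stood at 36.8, 28.6 and 33.9 FPKM in WT and at 58.98, 57.5 and 63.03 in ITD and rose by 0.84 ± 0.11, Aars rose by 0.76 ± 0.11 and Iars by 0.82 ± 0.14. Translation factors gave 13 higher and 0 lower of 45 tested (median 0.23), with Eif4g1, the scaffold of the cap-binding complex, at 39.7, 36.1 and 37.03 in WT and 54.02, 65.3 and 66.9 in ITD and a rise of 0.70 ± 0.11. Eif3a rose by 0.49 ± 0.086. Eif2s3x, an X-linked gene that escapes inactivation, stood at 35.97, 21.5 and 26.3 in WT and 53.8, 52.5 and 54.5 in ITD, and the 2 male WT libraries were its lowest. In the MYC network list 12 of 29 tested members rose and 1 fell (median 0.39), led by Mycn. Of those that rose, Tfrc, Ppat, Cad, Shmt2 and Nme2 are also members of other lists here. Myc itself stood at 120, 113 and 144 in WT and 138, 135 and 143 in ITD and did not pass (0.15 ± 0.10, limma adjusted p = 0.345). Hspd1, a mitochondrial chaperonin, stood at 147, 119 and 138 in WT and 238, 219.8 and 244 in ITD and rose by 0.80 ± 0.10, and the MYC antagonist Mnt fell by 0.47 ± 0.11. The calls of Mars and Hspd1 held when any 1 of the 6 libraries was left out. The calls of Aars, Iars, Eif4g1, Eif3a, Eif2s3x and Mnt were each lost in at least 1 fit, without ITD replicate 2, ITD replicate 3, WT replicate 1, WT replicate 2 or WT replicate 3 (highest adjusted p of 0.0527 to 0.126).

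Nucleotide and one-carbon metabolism genes that passed the test rose too. Of 27 purine and pyrimidine synthesis genes tested, 12 rose and 0 fell (median 0.39). Cad, which starts pyrimidine synthesis, stood at 12.1, 12.7 and 14.4 FPKM in WT and at 23.1, 29.04 and 30.3 in ITD and rose by 1.01 ± 0.13. Ppat, which commits to purine synthesis, stood at 22.6, 18.8 and 22.9 in WT and 44.4, 38.1 and 42.05 in ITD and rose by 0.93 ± 0.11. Ctps, the CTP synthetase, rose by 0.92 ± 0.13, Dhodh by 0.62 ± 0.10 and Pfas by 0.63 ± 0.10. Of 16 serine, glycine and one-carbon genes tested, 10 rose and 0 fell (median 0.50). Mthfd2, a mitochondrial folate enzyme, stood at 11.3, 9.41 and 9.49 in WT and 21.4, 19.96 and 23.4 in ITD and rose by 1.03 ± 0.12. Phgdh, the first enzyme of serine synthesis, stood at 205, 209.7 and 198 in WT and 303, 297 and 302 in ITD and rose by 0.56 ± 0.064, and Shmt2 rose by 0.56 ± 0.069. The amino acid response list, driven by ATF4, had 3 higher and 2 lower of 24 tested, where 9.97% of all genes rose and 4.88% fell. Vldlr, at 4.02, 3.88 and 3.81 in WT and 1.34, 1.305 and 1.32 in ITD, was lower. So was Ddit3 (CHOP), at 30.6, 38.9 and 35.3 in WT and 11.5, 21.95 and 20.9 in ITD. Those that rose were Aldh18a1 and Pycr1, both of proline synthesis, by 0.80 ± 0.12 and 0.73 ± 0.17, and Slc7a1, a transporter of cationic amino acids, by 0.68 ± 0.14. Leaving out any 1 of the 6 libraries kept the calls of Cad, Ppat, Mthfd2, Phgdh, Shmt2 and Vldlr. Ctps, Dhodh, Pfas, Ddit3, Aldh18a1, Pycr1 and Slc7a1 lost their calls in at least 1 fit each, without ITD replicate 2, ITD replicate 3, WT replicate 1, WT replicate 2 or WT replicate 3 (highest adjusted p of 0.0531 to 0.149). With sex as a covariate over 12 LSK libraries, the adjusted p was past 0.05 for Shmt2 (0.0517), Pycr1 (0.0644) and Slc7a1 (0.0630).

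Sterol and fatty acid synthesis genes rose where they passed the test. Of 28 tested cholesterol synthesis and uptake genes, 14 rose and 0 fell (median 0.64). Sqle (squalene epoxidase) stood at 18.4, 10.2 and 13.6 FPKM in WT and at 37.9, 35.98 and 38.9 in ITD and rose by 1.39 ± 0.19. Mvd, the mevalonate decarboxylase, stood at 5.55, 2.88 and 4.43 in WT and 16.6, 12.1 and 13.1 in ITD and rose by 1.52 ± 0.22. Idi1 stood at 19.7, 11.2 and 13.5 in WT and 48.4, 35.9 and 34.2 in ITD and rose by 1.38 ± 0.22. WT replicate 2 was the lowest WT library for all 3. Fdps rose by 1.19 ± 0.19, Cyp51 by 1.09 ± 0.17 and Acat2 by 0.76 ± 0.10. Of 16 fatty acid synthesis genes tested, 9 rose and 0 fell (median 0.53). Fasn, the fatty acid synthase, stood at 9.53, 9.89 and 11.5 in WT and 24.4, 30.9 and 30.5 in ITD and rose by 1.39 ± 0.13. Scd2, a desaturase, stood at 34.1, 31.5 and 45.1 in WT and 73.004, 79.8 and 79.7 in ITD and rose by 1.07 ± 0.14, Fads1 rose by 0.71 ± 0.13 and Acaca, the acetyl-CoA carboxylase, by 0.84 ± 0.17. Mvd, Fasn and Scd2 kept their calls whichever of the 6 libraries was left out. At least 1 fit, without ITD replicate 2, ITD replicate 3, WT replicate 2 or WT replicate 3, ended each of the calls of Sqle, Idi1, Fdps, Cyp51, Acat2, Fads1 and Acaca (highest adjusted p of 0.05001 to 0.0879).

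Energy metabolism changed in part. Of 30 glycolysis and glucose uptake genes tested, 8 rose and 1 fell (median 0.34). Pgam1 (phosphoglycerate mutase) stood at 209.9, 183 and 189.9 FPKM in WT and at 357, 339 and 369.5 in ITD and rose by 0.87 ± 0.08. Slc16a1, a lactate transporter, stood at 16.99, 9.41 and 12.8 in WT and 30.2, 26.8 and 29.9 in ITD and rose by 1.12 ± 0.20, and Pfkp rose by 0.79 ± 0.13. Ldhb, a lactate dehydrogenase subunit, went the other way, at 58.05, 75.5 and 77.2 in WT and 20.98, 27.5 and 20.1 in ITD, and fell by 1.58 ± 0.16. Oxidative phosphorylation genes gave 7 higher of 70 tested and 1 lower (median 0.17), a share near the 9.97% of all genes. Cox5a rose by 0.57 ± 0.088, Cycs (cytochrome c) by 0.57 ± 0.089, and Ndufa4 fell by 0.43 ± 0.081. The calls of Pgam1 and Ldhb held when any 1 of the 6 libraries was left out. The calls of Slc16a1, Pfkp, Cox5a, Cycs and Ndufa4 were each lost in at least 1 fit, without ITD replicate 2, ITD replicate 3 or WT replicate 2 (highest adjusted p of 0.0612 to 0.0844). The call of Ndufa4 (0.0759) did not hold with sex as a covariate over all 12 LSK libraries (adjusted p in brackets).

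The series concerns IRE1α, which Ern1 encodes and which splices the mRNA of Xbp1 when unfolded protein gathers in the endoplasmic reticulum (ER). Xbp1 (chromosome 11, 5520641 to 5525993) stood at 36.8, 23.2 and 22.5 FPKM in WT and at 64.8, 43.9 and 50.1 in ITD and rose by 0.94 ± 0.22 (adjusted p = 0.0366, and 0.0611 under quantile normalization). Ern1 (chromosome 11, 106397620 to 106487796) stood at 4.74, 4.55 and 3.73 in WT and at 3.73, 7.54 and 7.56 in ITD (0.40 ± 0.25, adjusted p = 0.299), and without ITD replicate 1 it passed the test (0.69 ± 0.13, adjusted p = 0.0274). WT replicate 1 was the highest WT library and ITD replicate 1 the highest ITD library for Xbp1, while for Ern1 ITD replicate 1 stood beside the lowest WT library and under the other ITD libraries. A gene's FPKM does not show splicing of Xbp1. Of 22 ER chaperone and isomerase genes tested, 10 rose and 0 fell (median 0.50). Hsp90b1 (GRP94) stood at 118, 91.5 and 115 in WT and 179, 193 and 199 in ITD and rose by 0.82 ± 0.11. Pdia5, a disulfide isomerase, stood at 5.93, 8.03 and 6.62 in WT and 16.6, 22.9 and 24.2 in ITD and rose by 1.49 ± 0.17. P4hb rose by 0.56 ± 0.074, Calr (calreticulin) by 0.54 ± 0.11, Canx (calnexin) by 0.60 ± 0.11 and Hyou1 by 0.90 ± 0.17. Of 16 sensors and factors of the unfolded protein response, 3 rose and 1 fell, where 9.97% of all genes rose and 4.88% fell. Ddit3 was the one that fell. Sec61b, a subunit of the translocon, rose by 0.42 ± 0.072 and Sel1l, of the ER degradation machinery, by 0.46 ± 0.12. Omission of any 1 library kept the calls of Pdia5 and P4hb. The call of Xbp1 held in only 1 of the 6 fits, that without WT replicate 1 (a highest adjusted p of 0.132), and that of Sel1l likewise. Hsp90b1, Calr, Canx, Hyou1, Sec61b and Sel1l lost their calls in at least 1 fit each, without ITD replicate 1, ITD replicate 2, ITD replicate 3, WT replicate 2 or WT replicate 3 (highest adjusted p of 0.0525 to 0.152). With sex as a covariate over 12 LSK libraries, the adjusted p was past 0.05 for Sel1l (0.141).

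Genes of DNA replication rose in part, and few of those of mitosis passed the test. Of 50 S phase genes tested, 14 rose and 0 fell (median 0.35), and of 41 mitosis genes 2 rose and 0 fell (median 0.24). Cdca7 stood at 130.1, 98.7 and 130.0 FPKM in WT and at 201, 197 and 199 in ITD and rose by 0.74 ± 0.12. Mcm2, a subunit of the replicative helicase, stood at 96.5, 104 and 116 in WT and 140.4, 145 and 153 in ITD and rose by 0.47 ± 0.091. Rrm1, of the ribonucleotide reductase, rose by 0.57 ± 0.11, Hells by 0.64 ± 0.10 and Pold2 by 0.60 ± 0.11. Among 28 cell cycle entry genes and inhibitors tested, 4 rose and 5 fell, where 9.97% of all genes rose and 4.88% fell. Ccne2 (cyclin E2) stood at 9.15, 6.87 and 9.07 in WT and 21.9, 18.8 and 16.8 in ITD and rose by 1.11 ± 0.15, and Skp2, which targets p27 for degradation, rose by 1.29 ± 0.25. The inhibitor Cdkn2d stood at 61.97, 65.9 and 64.8 in WT and 31.7, 32.03 and 36.1 in ITD and fell by 0.93 ± 0.088, and Cdkn2c fell by 0.82 ± 0.17. Ccne2 and Cdkn2d kept their calls whichever of the 6 libraries was left out. At least 1 fit, without ITD replicate 2, ITD replicate 3 or WT replicate 2, ended each of the calls of Cdca7, Mcm2, Rrm1, Hells, Pold2, Skp2 and Cdkn2c (highest adjusted p of 0.0612 to 0.0893). In the 12-library fit with sex as a covariate, the adjusted p rose past 0.05 for Pold2 (0.0746).

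BCL2 family and apoptosis genes gave 8 higher and 0 lower of 25 tested (median 0.29), Bcl2 and Bcl2l1 included. Of all genes tested, 9.97% rose and 4.88% fell. Bcl2a1a, Bcl2a1b and Bcl2a1d, near-identical copies of a survival gene that share reads, are counted among the 8 as separate genes. All of these copies were high in ITD replicates 2 and 3. Bcl2a1a stood at 0.485, 0.638 and 0.406 FPKM in WT and at 2.103, 10.4 and 11.7 in ITD, and Bcl2a1b at 1.13, 0.848 and 0.347 in WT and at 2.37, 12.1 and 12.6 in ITD. Casp1 rose by 0.56 ± 0.091 and Bid by 0.55 ± 0.11. Mcl1, on the same list, was lower in ITD and did not pass (-0.83 ± 0.26, limma adjusted p = 0.0725). Of 22 p53 targets, 1 rose and 1 fell, shares under those of all genes. Heat shock genes rose in 3 of 17 tested, with Hspa8 at 698, 622 and 635 in WT and 899, 1093 and 1130.3 in ITD and Hsph1 at 12.1, 10.2 and 12.3 in WT and 19.6, 26.3 and 28.5 in ITD. Proteasome genes (3 of 33) and redox genes under NRF2 (2 of 32, with 1 lower) rose at shares near or under that of all genes. The calls of Bcl2a1a, Bcl2a1b, Bcl2a1d, Casp1, Bid, Hspa8 and Hsph1 were each lost in at least 1 fit, without ITD replicate 2, ITD replicate 3, WT replicate 1, WT replicate 2 or WT replicate 3 (highest adjusted p of 0.0565 to 0.134).

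Genes of homing and adhesion gave 4 higher and 7 lower of 35 tested, where 9.97% of all genes rose and 4.88% fell. The share of homing genes that rose was thus near that of all genes. S1pr1, the sphingosine 1-phosphate receptor that lets progenitors leave tissue, stood at 5.99, 11.3 and 11.8 FPKM in WT and at 0.554, 1.07 and 1.04 in ITD and fell by 2.47 ± 0.26. Jam3, a junctional adhesion molecule of stem cells, fell by 1.01 ± 0.16. Of 37 lineage transcription factors, 1 rose (Id2) and 8 fell. Ikzf2 (Helios) stood at 5.14, 5.52 and 4.601 in WT and 2.45, 1.78 and 1.996 in ITD and fell by 0.99 ± 0.13. Among chromatin and DNA methylation regulators 0 rose and 2 fell of 40 tested, a share of falls near that of all genes. Satb1, a chromatin organiser of lymphoid cells, stood at 14.3, 12.9 and 12.2 in WT and 2.56, 6.87 and 5.99 in ITD and fell by 1.28 ± 0.29. In the Notch pathway Rbpj, its DNA-binding factor, rose by 0.56 ± 0.10 and Lfng by 0.71 ± 0.13, and the targets Hes1 and Hes5 fell, by 1.46 ± 0.21 and 0.76 ± 0.16. Of 8 GIMAP GTPases, 2 fell: Gimap6 stood at 196, 183 and 191 in WT and 120.4, 101 and 86.5 in ITD and Gimap1 at 70.5, 69.2 and 58.5 in WT and 53.8, 39.8 and 45.2 in ITD. Gimap3, at 20.5, 3.19 and 3.27 in ITD replicates 1 to 3, and Gimap4, at 54.4, 13.9 and 9.55, were high in ITD replicate 1 and did not pass. Among pattern receptors and inflammatory mediators 4 rose and 2 fell of 30 tested, shares not far from those of all genes. Ltb (lymphotoxin beta) stood at 67.3, 80.3 and 66.6 in WT and 40.5, 26.2 and 29.3 in ITD (log2 fold change -1.15 ± 0.17). Leaving out any 1 of the 6 libraries kept the calls of S1pr1 and Gimap6. Jam3, Ikzf2, Satb1, Rbpj, Lfng, Hes5, Gimap1 and Ltb lost their calls in at least 1 fit each, without ITD replicate 2, ITD replicate 3, WT replicate 1, WT replicate 2 or WT replicate 3 (highest adjusted p of 0.05001 to 0.157).

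Counts of several lists moved with the scaling or with ITD replicate 1. Under the median-ratio size factor, 6 ER chaperone genes, 5 BCL2 family and apoptosis genes, 2 oxidative phosphorylation genes and 3 mitochondrial ribosomal protein genes rose. Under quantile normalization, 6 ER chaperone genes, 9 aminoacyl-tRNA synthetases, 7 translation factors and 9 S phase genes rose. The same scaling left 6 serine and one-carbon genes, 4 glycolysis genes, 2 oxidative phosphorylation genes, 1 unfolded protein response factor and 2 cell cycle entry genes higher. It also left 3 TGF-beta and quiescence genes and 3 cell cycle entry genes lower, and brought the interferon genes that fell to 4. The median of the cytosolic ribosomal protein list turned to -0.024 under the median-ratio size factor, and that of the NRF2 list from 0.061 to -0.039. Calls lost under the median-ratio size factor included Bcl2l1 (adjusted p = 0.0532), Ciita (0.0513), Hk3 (0.0675), Sel1l (0.0772) and Socs6 (0.0921), and quantile normalization ended those of Mcm2 (0.0586), Ccnd2 (0.0685) and Foxo1 (0.0717). Without ITD replicate 1, 13 monocyte and macrophage genes rose and 4 fell, 9 interferon genes, 7 homing genes, 5 NRF2 genes and 5 heat shock genes rose, and 10 cytokine receptors and 5 pattern receptor genes fell. Oxidative phosphorylation genes then gave 3 higher.

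The effect of the duplication was then measured in Ern1-deleted LSK, as IRE1_KO_ITD against IRE1_KO. There 1319 of 11527 genes tested rose (11.4%) and 2094 fell (18.2%). Of the genes that rose in ITD against WT LSK and were tested there, 433 of 1114 (38.9%) rose too, and of those that fell, 385 of 525 (73.3%) fell. These shared genes make up 32.8% and 18.4% of the genes that rose and fell in Ern1-deleted LSK. Nov changed by 5.61 there, Socs2 by 4.69, Flt3 by -1.48, Pdzk1ip1 by -1.90, Ifitm1 by 3.01 and Car1 by -6.04, the same directions as in Ern1-intact LSK. In the deposited tables a 1ng tag stands in the headers of the 3 IRE1_KO LSK libraries and of no other LSK library used here. Any difference that involves this group therefore cannot be told apart from the tag.

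The difference between both effects was tested as an interaction, and 830 of 11955 genes passed (6.94%). It was 1555 without ITD replicate 1 and 348 without IRE1_KO_ITD replicate 2. Class II genes differed: H2-Eb1 changed by 3.74 in Ern1-intact and by -1.47 in Ern1-deleted LSK (difference -5.21 ± 0.88, adjusted p = 0.00948), Cd74 by 3.004 and -2.003 (difference -5.01 ± 0.86, adjusted p = 0.00979) and H2-Aa by 3.90 and -0.79 (difference -4.69 ± 0.90, adjusted p = 0.0151). H2-Aa stood at 31.2, 40.1 and 42.5 FPKM in IRE1_KO and at 18.2, 17.6 and 30.05 in IRE1_KO_ITD. Satb1 fell in both and by more in Ern1-deleted LSK (difference -2.07 ± 0.34, adjusted p = 0.00911). Lars2, a mitochondrial leucyl-tRNA synthetase, stood at 157, 70.2 and 125 in IRE1_KO and at 819.7, 961 and 776 in IRE1_KO_ITD, against 1552, 1746 and 1462 in WT and 1309, 879 and 1084 in ITD (difference 3.47 ± 0.35, adjusted p = 0.00223). Alyref, an mRNA export factor, stood at 183, 199 and 203 in IRE1_KO and at 21.3, 20.9 and 14.2 in WT (difference -2.88 ± 0.33, adjusted p = 0.00344). For Lars2 and Alyref the IRE1_KO group stood apart from the other LSK groups. Lars2 missed the test in ITD against WT LSK and passed it without ITD replicate 1 (-0.70 ± 0.12, adjusted p = 0.0224). The IRE1_KO libraries also stood apart in composition: loci of short RNAs took 3.78% to 5.27% of their FPKM and 9.85% to 11.2% in the other LSK libraries, and the part of this in the interaction was not tested.

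The effect of the duplication was also measured in GMP, where 364 of 10758 tested rose (3.38%) and 145 fell (1.35%). Of the genes that rose in LSK and were tested in GMP, 110 of 1094 (10.1%) rose there too, and of those that fell, 43 of 395 (10.9%) fell. They make up 30.2% of the genes that rose in GMP and 29.7% of those that fell. Socs2 changed by 5.19 in GMP, Nov by 4.02, H2-Aa by 4.42, Cd74 by 4.29 and Bcl2 by 1.29, each higher as in LSK. Sex was distributed over the GMP libraries as over the LSK libraries, so this comparison does not separate it from the genotype.

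The ITD effect differed between GMP and LSK in 908 of 11828 genes by the interaction (7.68%), with 174 without WT GMP replicate 3 and 1537 without ITD GMP replicate 1. Flt3 changed by -1.41 in LSK and by 1.04 in GMP, where it stood at 4.54, 12.8 and 10.5 FPKM in WT and 32.7, 14.8 and 13.5 in ITD with ITD replicate 1 apart (adjusted p in GMP 0.195, difference 2.45 ± 0.49, adjusted p = 0.0226). Mcpt8 rose in LSK and stood at 188, 109.7 and 109 in WT GMP and 94.3, 79.7 and 64.3 in ITD GMP (difference -2.39 ± 0.33, adjusted p = 0.00711). Hsp90b1 rose in LSK and changed by -0.48 in GMP (difference -1.30 ± 0.16, adjusted p = 0.00464), and Cst7 rose in LSK and changed by -0.64 in GMP (difference -1.73 ± 0.20, adjusted p = 0.00426). Prss57, a serine protease of primary granules, changed by 0.49 in LSK and -1.02 in GMP (difference -1.51 ± 0.17, adjusted p = 0.00370). Fcgrt, the neonatal Fc receptor, stood at 15.7, 18.8 and 16.5 in WT LSK and 15.6, 13.2 and 18.2 in ITD LSK, and at 4.81, 4.01 and 3.82 in WT GMP and 19.7, 16.9 and 18.2 in ITD GMP (difference 2.01 ± 0.19, adjusted p = 0.00113). Ypel3, a gene linked to growth arrest, stood at 114, 117 and 97.3 in WT LSK and 39.9, 49.5 and 47.7 in ITD LSK, and at 26.1, 24.9 and 27.2 in WT GMP and 40.2, 32.7 and 36.1 in ITD GMP (difference 1.70 ± 0.16, adjusted p = 0.00113). For Wfdc2 and Ndn, which fell in LSK, no effect could be measured in GMP, where Wfdc2 was listed at 0 in every WT and ITD library and Ndn stood at 0.0632, 0.0226 and 0 in WT and 0, 0 and 0.0215 in ITD.

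**Figure D5:**
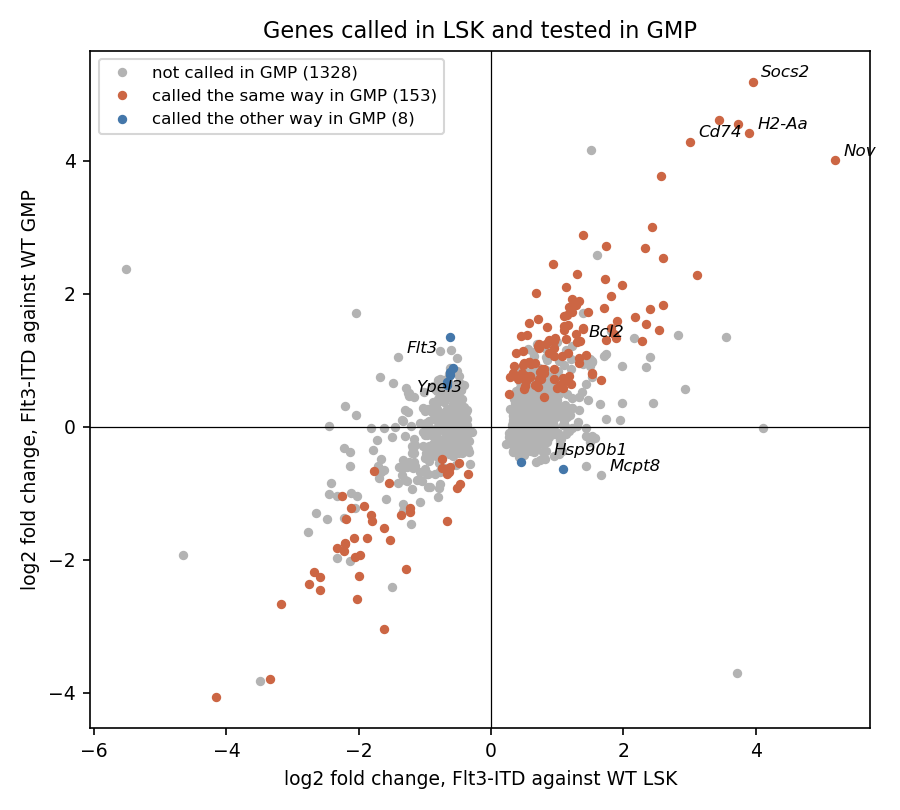
Each point is 1 of the genes called in LSK and also tested in GMP, placed by its log2 fold change between Flt3-ITD and WT in LSK (horizontal) and in GMP (vertical). Of these genes, 153 were called the same way in GMP (orange), among them Socs2, Nov, H2-Aa, Cd74 and Bcl2 at the upper right, and 8 the other way (blue), while Flt3 lies at the upper left.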

How the data were processed

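RNA from sorted LSK and GMP cells was sequenced, and the authors deposited 1 FPKM table per library, made with STAR and Cufflinks on mm10 per the submitters' processing notes, and no versions are named there. The labels' protocol and the series' design text name different library kits, and which was used is not settled. FPKM values were used as deposited: a scale relative to each library's total, so a few abundant loci can shift all other genes. A gene entered a comparison when 3 or more of its libraries reached 1 FPKM, and was tested on log2(FPKM + 1) by limma 3.58.1 (R 4.3.3, mean-variance trend), and p-values were adjusted by Benjamini and Hochberg over all genes tested. Tables and figures were made with Python 3.11.15, pandas 2.3.3, numpy 2.4.6 and matplotlib 3.10.9. Differences between ITD effects were interaction terms over 12 libraries. In simulated data of 11176 genes for the ITD against WT LSK comparison, a change of 1 log2 unit was recovered for 74% of the genes given it and a change of 2 for 94.8%. Only genes with a WT mean of log2(FPKM + 1) over 2 were given a change, so lower genes were not tried. Noise was drawn independently for each gene and library, with no library set apart and no sex difference. Without read counts no counting interval is given.

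The groups, members and gene lists were chosen with earlier results of these data known, so list counts and medians are descriptions. Named genes were Flt3, Kit, Ly6a, Xbp1 and Ern1, the 10 highest and 10 lowest fold changes among called genes that changed by 1 log2 unit or more and averaged 5 FPKM or more in their higher group (short RNA, immunoglobulin and sex genes left out), up to 6 called members of each list with the smallest p, up to 3 in its opposite direction, the most abundant members of lists with fewer than 3 calls, all members of lists of at most 12, and up to 8 genes per direction for each interaction. Pim2, Il2ra, Hspa1a and Irf8, Mpo, Prtn3 and Ctsg, and Cst3, Myc, Mcl1 and Bcl2a1d were added after their values were seen. Alternatives were another pseudocount (0.1), no filter, 2 other scalings, the replicate number as a block, sex as a covariate, other sets of LSK libraries, short loci left out, and each library left out in turn. X-inactivation and Y-linked transcripts gave the sex of each library. Promoter windows are from RefSeq (GRCm38.p6), matched by symbol.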

Additional observations from a re-analysis of the deposited data

Results flagged for a closer look

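Genes are given here because the effect of the duplication differed between settings by the limma interaction term. Between Ern1-deleted and Ern1-intact LSK, the ITD effect differed by -5.21 ± 0.88 log2 units for H2-Eb1, by -5.01 ± 0.86 for Cd74 and by -4.69 ± 0.90 for H2-Aa, where negative values mean a lower effect in Ern1-deleted LSK. ITD replicate 1 was the lowest ITD library for these class II genes. The difference was -2.07 ± 0.34 for Satb1, 3.47 ± 0.35 for Lars2 and -2.88 ± 0.33 for Alyref. All 6 involve the IRE1_KO libraries with the 1ng tag and a lower share of short RNA loci, from which the genotype cannot be told apart.

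Between GMP and LSK, the ITD effect was higher in GMP by 2.45 ± 0.49 for Flt3, 2.01 ± 0.19 for Fcgrt and 1.70 ± 0.16 for Ypel3. The difference was -2.39 ± 0.33 for Mcpt8, -1.73 ± 0.20 for Cst7, -1.51 ± 0.17 for Prss57 and -1.30 ± 0.16 for Hsp90b1, lower in GMP. Groups of 3 libraries are too small for a test of single outlying values.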

How the results depend on the processing

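The count of 1689 genes called in ITD against WT LSK was 990 with no filter, 649 with the replicate block, 126 with sex as a covariate in the 6 libraries, 27 with the 4 female libraries only, 2633 over all 12 LSK libraries and 2566 over 9 LSK libraries without IRE1_KO. The last 2 have more libraries behind the spread, and the female fit has 1 WT library, assumed to vary like the ITD group. The cause of the other shifts was not tested. The 830 genes with a different ITD effect in Ern1-deleted LSK became 537 under the median-ratio size factor and 82 with sex as a covariate. Scaling moved the median of all genes in that difference from -0.14 to 0.024 (quantile) and -0.016 (median-ratio), and the share of positive calls from 19.6% to 39.7% and 40.0%. Leaving out each library in turn gave 256 to 2033 calls in ITD against WT LSK, 348 to 1555 for the difference in Ern1-deleted LSK and 174 to 1537 for that in GMP. Taken over all genes tested, deviations of same-numbered WT and ITD libraries correlated at 0.0452, -0.165 and 0.0713. Such correlations cannot show whether a part of the genes varied with the replicate number. Replicate 1 was the lowest library in both genotypes for the summed ERK list and for Smad7 and Id3. The replicate block gave 638 and 1133 calls for the 2 differences. Same-numbered LSK and GMP libraries of 1 genotype correlated at 0.0691 to 0.217, with 4 of 6 pairs over 0.1, and a replicate block within each genotype gave 762 calls for the difference in GMP. The fits with female libraries only, all 12 LSK libraries with sex and 9 LSK libraries, and the block within each genotype, were chosen after seeing the data. Among named genes that were not called, Gimap3 changed sign to -0.238 without ITD replicate 1 and Alyref to 0.009 without WT replicate 1, where the other single-library omissions ran up to 0.944 for Gimap3 and down to -0.269 for Alyref.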
